A study of Homo sapiens with 9 samples.

Results

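The genes described here make and sense hepcidin and move iron in the hepatocyte: HAMP, BMP6, HFE, TFR2, TF, TFRC, SLC11A2, SLC40A1 and CP. They were followed in HepG2, an established human line from a liver tumour, in cultures given vehicle, 10 nM triiodothyronine (T3) or 10 nM GC-1 for 24 h. All 3 groups were kept in medium with serum depleted of thyroid hormone. GC-1, or sobetirome, is a synthetic thyroid hormone receptor ligand without iodine that prefers the beta receptor. Members were all probe sets, the array's units of measurement, whose annotation named exactly 1 of these genes. This gave 30 of 22215 probe sets on the 9 arrays (3 per group) and covered 8 of the 9 genes, out of 11963 genes measured. SLC40A1, the iron exporter ferroportin, was not analysed here, as it had no probe set of its own in the annotation. HFE supplied 13 of the 30, SLC11A2 and TF 4 each, TFR2 3, TFRC and BMP6 2 each, and HAMP and CP 1 each.

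Hepcidin, the product of HAMP, is a peptide hormone that hepatocytes release when iron is plentiful or during inflammation. It blocks and degrades ferroportin, so that less iron leaves the gut, macrophages and liver. Its transcription is driven by bone morphogenetic proteins such as BMP6 through SMAD proteins, tuned by HFE and TFR2 at the cell surface, and separately by interleukin-6 through STAT3. Transferrin (TF) carries iron in plasma, TFRC takes it up, SLC11A2 moves it out of endosomes, and the copper enzyme ceruloplasmin (CP) oxidises iron as it leaves cells.

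The array values are log2 signals, so a difference of 1 is a change of 2-fold. The array medians lay between 7.02 and 7.06. T3 replicates 1 and 2 stood apart on the second principal component, at -14.6 and -11.8, where the other 7 arrays lay between 0.360 and 8.30. On the first, T3 replicate 3 was highest at 14.1, with the other ligand arrays between 1.58 and 7.29. Vehicle arrays lay between -12.8 and -11.5 there. The interquartile range of the signals of T3 replicates 1 and 2 was also wider, at 2.99 and 2.97 against 2.83 to 2.88. Results for T3 are therefore also given without this pair and with the interquartile range as a covariate. Without the pair only T3 replicate 3 is left, and its spread is taken from the vehicle and GC-1 arrays. Hepatocyte markers were at the top of the scale, with ALB at 14.39 and AFP at 14.38 in vehicle. Of 8 such markers 7 were measured, TF among them, with group means from 12.06 to 14.47, and 1, APOB, rose with T3. Their summed linear signal ran from 108713 to 110726 on the vehicle arrays, from 113676 to 117600 on the T3 arrays and from 113333 to 116326 on the GC-1 arrays. Arrays of a bulk culture cannot tell more RNA per cell from more cells that express a gene.

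The first question was which of these genes T3 changed. HAMP rose 2.47-fold, and smaller rises were seen in TF, TFR2 and CP, while no probe set of BMP6, HFE, TFRC or SLC11A2 passed the test. Of the 30 probe sets 5 rose (16.7%), 2 of them of TFR2, against a background of 4.00% of all probe sets on the array. None fell, where 1.50% of all probe sets did. With each gene represented by its brightest probe set, 3 of 8 rose (HAMP, TFR2 and CP), against 4.51% of all genes, and none fell, against 1.71%. The median log2 difference of the 30 was 0.08, beside -0.015 over all probe sets. The members were chosen with earlier results of these data known. Shares above the background, here and below, are therefore not evidence that these genes responded as a set. These T3 shares depended on the model. With the interquartile range as covariate, 2 of the 30 rose (HAMP and 1 of TF), against 932 of all 22215 probe sets. No probe set of TFR2 or CP was called, so of the 3 genes counted by the brightest probe set HAMP alone was left. The covariate was highest on T3 replicates 1 and 2, so its part cannot be fully told apart from that of T3. Without T3 replicates 1 and 2 the brightest TFR2 and CP probe sets differed from vehicle by 0.23 and 0.25. With all arrays the differences were 0.23 and 0.39. The second question was which of the genes responded to GC-1, given at equal dose for an equal time. HAMP rose 2.10-fold and was the 1 probe set of 30 that passed, against a background of 1.81% higher and 0.986% lower. It was also the 1 gene of 8 by the brightest probe set, where 2.10% of all genes rose and 1.16% fell. The median of the 30 under GC-1 was 0.07, beside -0.0043 over all probe sets. These comparisons share the vehicle arrays.

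**Figure D1:**
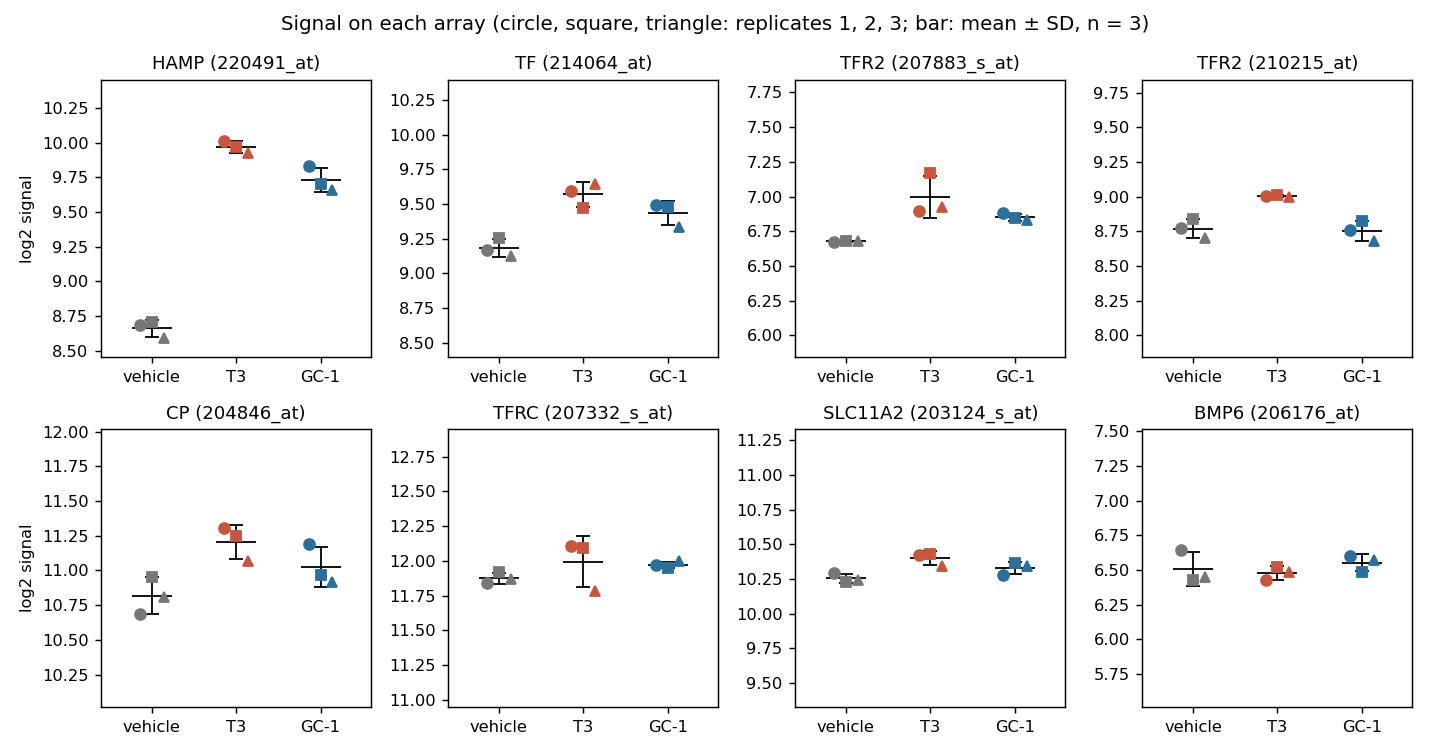
Log2 signal on each of the 9 arrays for 8 probe sets of HAMP, TF, TFR2, CP, TFRC, SLC11A2 and BMP6. Points are arrays, bars the group mean ± SD (n = 3), and every panel spans 2 log2 units. The HAMP panel shows 3 vehicle arrays between 8.59 and 8.71 and all 6 ligand arrays between 9.66 and 10.01, while in the other panels the groups lie much closer together.

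HAMP, the hormone itself, was measured by probe set 220491_at. Its log2 signal was 8.69, 8.71 and 8.59 on the vehicle arrays, 10.01, 9.97 and 9.92 on the T3 arrays, and 9.83, 9.70 and 9.66 on the GC-1 arrays. The groups did not overlap at any point, with vehicle lowest, GC-1 next and T3 highest. The T3 minus vehicle log2 difference was 1.30 ± 0.06 (SE, n = 3 per group; 95% interval 1.18 to 1.43; adjusted p = 5.07e-07, limma). That is the 12th largest increase among the 22215 probe sets. The GC-1 minus vehicle log2 difference was 1.07 ± 0.06 (interval 0.94 to 1.20; adjusted p = 3.05e-06, limma), the 15th largest. Both calls held under all 16 alternatives run, which moved the T3 difference between 1.26 and 1.33 and the GC-1 difference between 1.02 and 1.10. Without T3 replicates 1 and 2 the T3 difference was 1.26 (adjusted p = 0.000281, limma). The summed hepatocyte markers, TF among them, were higher on the ligand arrays too, and their part in the result was not tested.

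GC-1 arrays lay 1.18-fold below T3 arrays in HAMP (log2 difference -0.24, 95% interval -0.37 to -0.11), with every GC-1 array below every T3 array. This difference did not pass the test across the array (adjusted p = 0.198, limma) and its adjusted p ranged from 0.0646 to 0.461 over the alternatives.

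The genes whose profile over the 9 arrays came nearest to that of HAMP were CPT1A, C8B, SGK1, PCK1 and UGT2B4. Nearness was the root mean square difference in log2 signal after each gene was centred on its vehicle mean, over 11962 genes, with a median of 0.99. CPT1A, which admits fatty acids into mitochondria, was nearest at 0.08, with differences of 1.31 under T3 and 1.08 under GC-1. C8B, a chain of complement component 8, stood at 0.12. The kinase SGK1 and the glucose synthesis enzyme PCK1 each stood at 0.14. The glucuronosyltransferase UGT2B4 followed at 0.15. None of the other iron genes was among these 5. The measure depends on the size of a change, and the other member probe sets differed by at most 0.39 under T3. The absence of these members follows from that size.

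**Figure D2:**
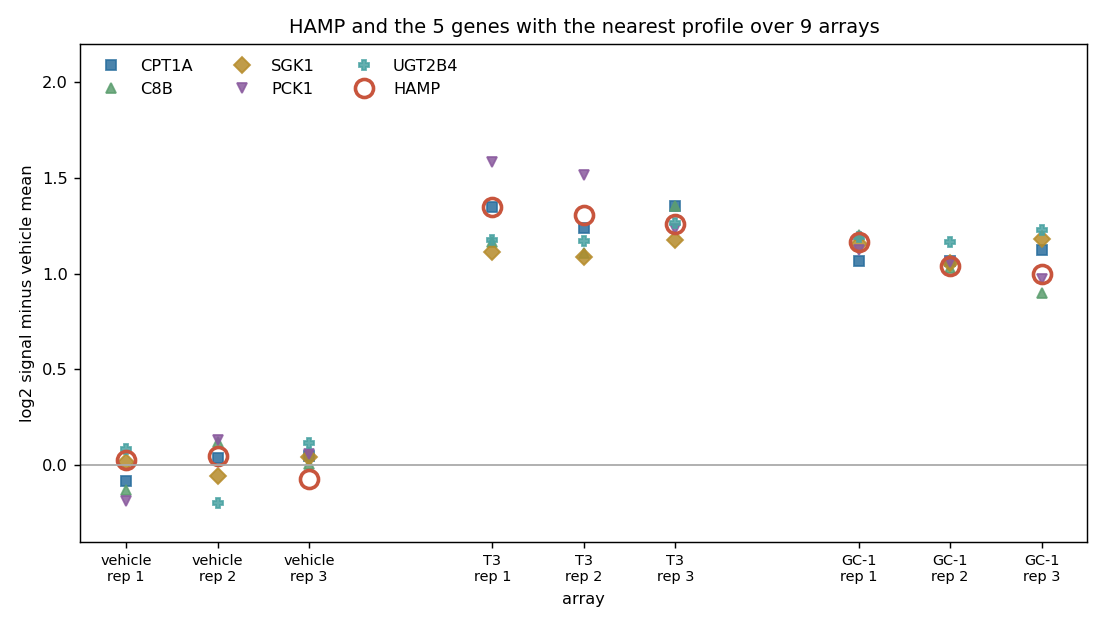
Log2 signal minus the vehicle mean on each array for HAMP (open circles) and the 5 genes with the smallest root mean square difference from it. All 6 genes lie near 0 on the vehicle arrays and around 1 or higher on the ligand arrays; PCK1 lies above HAMP on T3 replicates 1 and 2.

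The DNA just before the HAMP start site is shown because it holds core letters of the pathways that control the gene. The same stretch of TF is shown because HAMP and TF were the genes called under T3 with and without the outlying T3 pair and with the covariate, a choice made after their values were seen. Of the 2 TF windows the one with AGGTCA is printed, also chosen after the matches were seen; the other holds GGCGCC at 2 places and no AGGTCA. Sequences are from RefSeq, build GRCh38.p14, both on the plus strand, and end 1 base before the start site. Capitals mark matches to any of 5 motifs searched on both strands.
HAMP, chr19:35282278-35282527: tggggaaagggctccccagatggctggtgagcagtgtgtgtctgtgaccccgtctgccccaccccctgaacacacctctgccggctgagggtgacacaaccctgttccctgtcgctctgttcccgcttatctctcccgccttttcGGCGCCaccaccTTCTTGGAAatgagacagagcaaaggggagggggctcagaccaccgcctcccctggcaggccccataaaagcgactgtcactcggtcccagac
TF, chr3:133746143-133746392: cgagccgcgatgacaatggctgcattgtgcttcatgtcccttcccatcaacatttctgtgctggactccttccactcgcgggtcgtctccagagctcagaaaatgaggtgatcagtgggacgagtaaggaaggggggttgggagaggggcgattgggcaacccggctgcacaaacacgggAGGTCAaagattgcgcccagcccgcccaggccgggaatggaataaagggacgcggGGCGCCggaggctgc
In HAMP the capitals are GGCGCC, 105 to 100 bases before the start, a core known from BMP response elements, and a match to TTCNNNGAA, the core bound by STAT proteins, 93 to 85 bases before it. In TF they are AGGTCA, the half-site of thyroid hormone and related receptors, 70 to 65 bases before the start, and GGCGCC at 15 to 10. The other motifs were a repeat of AGGTCA with a spacer of 4 bases, which contains the single half-site, and CACGTG. The table held 11 such windows for 7 of the 9 genes, of which TF had 2 and SLC11A2 had 4. TFR2 and CP had no window and were not searched, while SLC40A1, without a probe set, was among the 7. AGGTCA was in 3 of the 11 windows, in TF, SLC11A2 and BMP6, against 12.1% of all 35116 windows of 250 bases. GGCGCC was in 4, in HAMP, TFRC and both of TF, against 16.4%. TTCNNNGAA was in 1, that of HAMP, against 6.57%. Both cores belong to pathways known to control HAMP, so its matches are not a new result. The repeat and CACGTG were in 0 of 11, against 0.014% and 6.34%. A match describes these letters and is not a measured binding site.

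**Figure D3:**
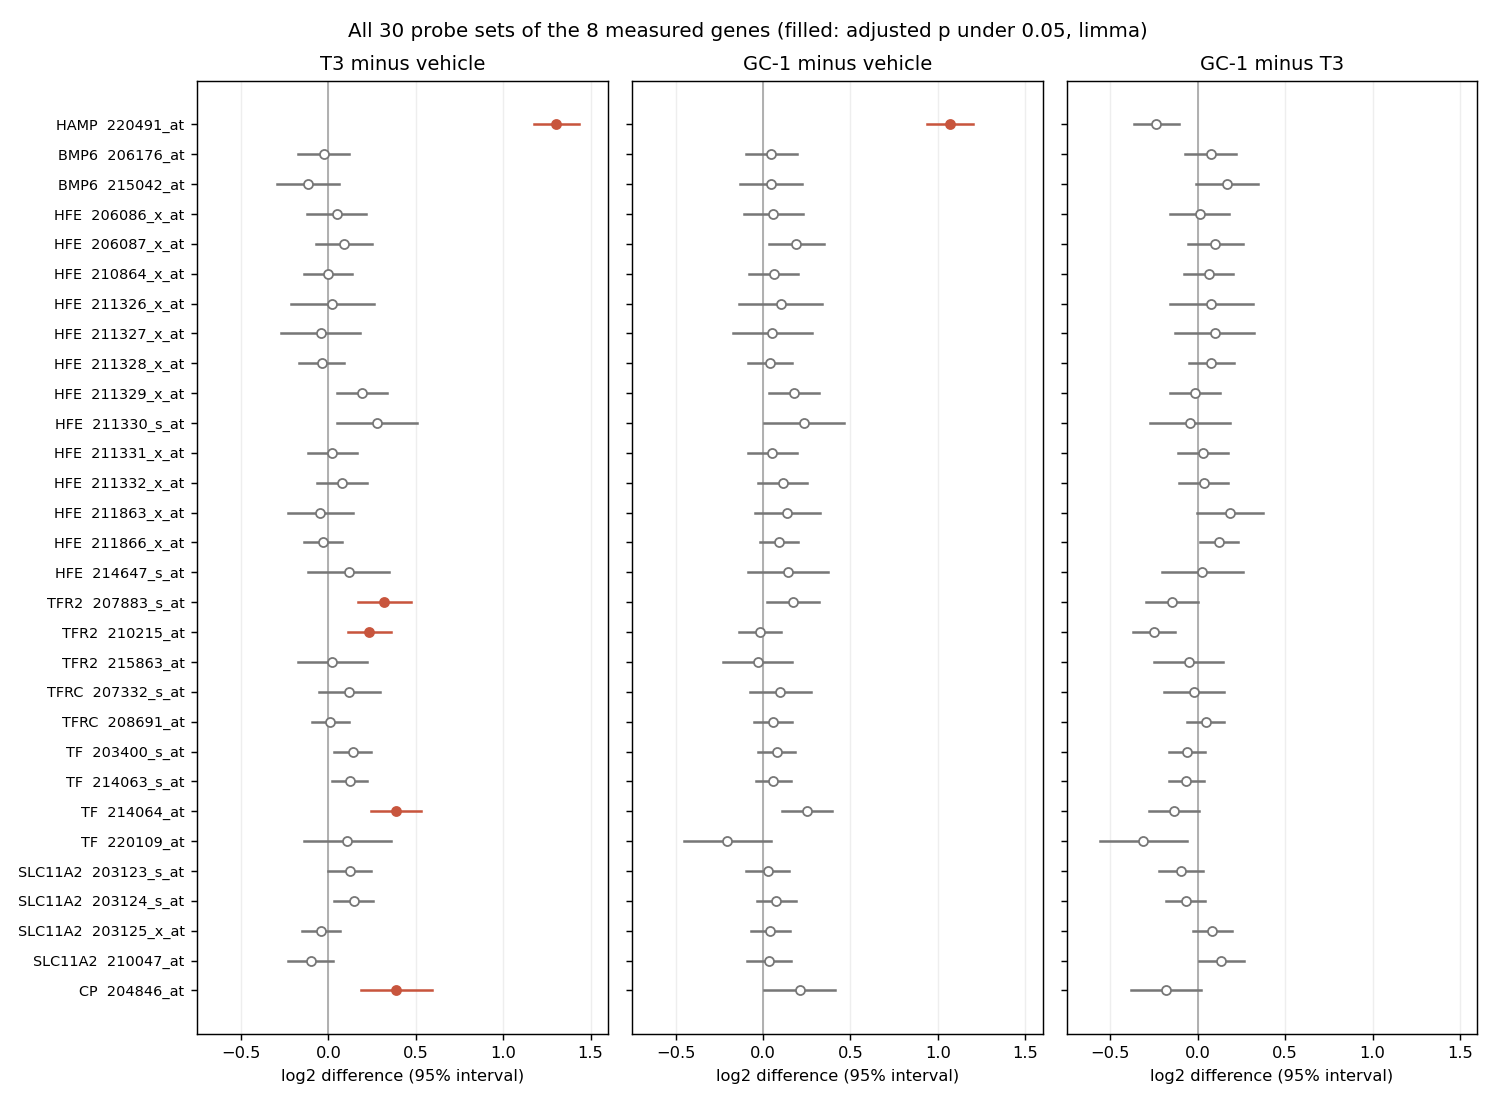
Log2 differences with 95% intervals for all 30 probe sets, from left to right T3 minus vehicle, GC-1 minus vehicle and GC-1 minus T3. Filled points passed an adjusted p under 0.05 in limma: HAMP, both called TFR2 probe sets, 1 of TF and CP under T3, HAMP alone under GC-1, and none between the ligands.

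Upstream of hepcidin, BMP6 is the ligand that the liver's endothelial cells make when iron is high. Its probe set 206176_at read 6.65, 6.43 and 6.45 in vehicle, 6.43, 6.52 and 6.49 with T3, and 6.60, 6.49 and 6.57 with GC-1. The groups overlapped, and the log2 differences were -0.03 with T3 and 0.05 with GC-1 (adjusted p = 0.856 and 0.805, limma). The other, 215042_at, ranged from 5.60 to 5.95, with differences of -0.12 and 0.05 (adjusted p = 0.438 and 0.842, limma). Both lay below the array medians. The 7 endothelial markers measured had vehicle means between 4.83 (CDH5) and 7.64 (STAB1), and 0 of 7 were called with either ligand.

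HFE, the haemochromatosis protein, binds TFRC and takes part in sensing iron. Its 13 probe sets ranged from 5.95 to 8.21 over the arrays, and 0 of 13 were called with either ligand in limma. Their differences ran from -0.05 to 0.28 with T3 (median 0.02, 8 above 0) and from 0.04 to 0.23 with GC-1 (median 0.10, all 13 above 0). Of the 13, 11 are of a type that can bind several transcripts, and they share sequence, so they are not independent. The largest difference was in 211330_s_at, which read 6.56, 6.77 and 7.10 in vehicle, 7.11, 7.08 and 7.08 with T3, and 7.10, 7.03 and 7.0 with GC-1. The vehicle arrays spread more widely than the ligand arrays and reached into them. Its differences were 0.28 and 0.23 (adjusted p = 0.155 and 0.306, limma). Without vehicle replicate 3 they were 0.42 (adjusted p = 0.0111) and 0.38 (adjusted p = 0.0332).

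TFR2, the hepatocyte's second transferrin receptor and an iron sensor, rose with T3 in 2 of its 3 probe sets. Probe set 207883_s_at read 6.67, 6.68 and 6.68 in vehicle, 6.90, 7.17 and 6.93 with T3, and 6.88, 6.84 and 6.83 with GC-1. Both ligand groups lay wholly above vehicle. The differences were 0.32 ± 0.07 with T3 (adjusted p = 0.0198, limma) and 0.17 ± 0.07 with GC-1 (adjusted p = 0.241, limma). Without the outlying T3 pair the first was 0.25 (adjusted p = 0.0385). It did not pass with the covariate (0.28, adjusted p = 0.107) or without vehicle replicate 1, 2 or 3 (adjusted p = 0.0721, 0.0637 and 0.0697).

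Probe set 210215_at of TFR2 read 8.77, 8.84 and 8.70 in vehicle, 9.01, 9.01 and 9.00 with T3, and 8.76, 8.82 and 8.68 with GC-1. T3 arrays stood above all others, while GC-1 arrays overlapped with vehicle. The T3 minus vehicle difference was 0.23 ± 0.06 (adjusted p = 0.0326, limma) and the GC-1 minus vehicle difference -0.02 ± 0.06 (adjusted p = 0.928). Of the 30 probe sets this one had the smallest p between the ligands. GC-1 minus T3 was -0.25 (95% interval -0.37 to -0.13), again short of the threshold (adjusted p = 0.176, limma). The T3 call was lost without vehicle replicate 1 or 3 (adjusted p = 0.101 and 0.131) and without T3 replicate 1 or 2 (adjusted p = 0.0868 and 0.0697). It was also lost without the T3 pair (0.23, adjusted p = 0.118), with the covariate (0.22, adjusted p = 0.110) and after quantile normalization (0.21, adjusted p = 0.0517). The third probe set, 215863_at, was dim (5.55 to 5.89), with differences of 0.02 and -0.03 (adjusted p = 0.918 and 0.918).

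TF, the iron carrier of plasma, was called in 1 of its 4 probe sets. Probe set 214064_at read 9.16, 9.26 and 9.13 in vehicle, 9.59, 9.47 and 9.64 with T3, and 9.49, 9.48 and 9.33 with GC-1. All 6 ligand arrays stood above all 3 vehicle arrays. The T3 difference was 0.39 ± 0.07, or 1.31-fold (95% interval 1.18 to 1.44; adjusted p = 0.00515, limma), and 0.46 without the T3 pair (adjusted p = 0.0152). With the covariate it was 0.45 (adjusted p = 0.0164). The GC-1 difference was 0.25 ± 0.07, or 1.19-fold (adjusted p = 0.0713, limma). It passed under 6 of 16 alternatives, such as without T3 replicate 3 (adjusted p = 0.0419), an array that bears on the pooled spread alone.

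The 2 brightest TF probe sets moved less. Their signals lay near the upper end of the scale, which reached 14.54 on these arrays. The first, 203400_s_at, read 13.77, 13.80 and 13.80 in vehicle, 13.94, 13.92 and 13.91 with T3, and 13.93, 13.85 and 13.82 with GC-1. The second, 214063_s_at, ran from 14.03 to 14.09 in vehicle, 14.17 to 14.21 with T3 and 14.11 to 14.14 with GC-1. In both, every ligand array lay above every vehicle array. The T3 differences of 0.14 and 0.12 did not pass (adjusted p = 0.125 and 0.151, limma), nor did those of 0.08 and 0.06 with GC-1 (adjusted p = 0.475 and 0.597). With the trend and robust options of limma both passed under T3 (adjusted p = 0.00128 and 0.00104). The dim 220109_at (5.56 to 6.17) differed by 0.11 and -0.20 (adjusted p = 0.638 and 0.424).

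TFRC, the main receptor for iron-loaded transferrin, whose messenger is stabilised when cells lack iron, was not called. Probe set 207332_s_at read 11.84, 11.92 and 11.87 in vehicle, 12.10, 12.10 and 11.78 with T3, and 11.97, 11.95 and 12.00 with GC-1. T3 replicates 1 and 2 stood above every other array and T3 replicate 3 below every other, while all GC-1 arrays lay above all vehicle arrays. The differences were 0.12 with T3 and 0.10 with GC-1 (adjusted p = 0.417 and 0.600, limma). Without T3 replicate 3 the T3 difference was 0.23 (adjusted p = 0.0231), and without replicates 1 and 2 it was -0.09 (adjusted p = 0.412), so its direction rests on which T3 arrays are kept. The other probe set, 208691_at, ran from 12.79 to 12.92, with differences of 0.01 and 0.06 (adjusted p = 0.926 and 0.640).

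SLC11A2, the divalent metal transporter DMT1, was not called in any of its 4 probe sets. The brightest, 203124_s_at, read 10.29, 10.23 and 10.24 in vehicle, 10.43, 10.43 and 10.34 with T3, and 10.28, 10.37 and 10.35 with GC-1. T3 arrays lay above vehicle arrays, and GC-1 arrays overlapped with them. The differences were 0.14 and 0.08 (adjusted p = 0.130 and 0.510, limma), and the first passed with the trend and robust options (adjusted p = 0.0392). Probe set 203123_s_at likewise had its T3 arrays (9.50 to 9.58) above vehicle (9.34 to 9.44), with differences of 0.12 and 0.03 (adjusted p = 0.244 and 0.879). The T3 differences of 203125_x_at and 210047_at had the opposite sign, -0.04 and -0.10 (adjusted p = 0.688 and 0.355).

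CP, the ferroxidase that works with ferroportin, was measured by 204846_at. It read 10.69, 10.95 and 10.81 in vehicle, 11.30, 11.25 and 11.07 with T3, and 11.19, 10.97 and 10.91 with GC-1. T3 arrays lay above vehicle, with T3 replicate 3 nearest to it, and GC-1 arrays overlapped with vehicle. The T3 difference was 0.39 ± 0.09, or 1.31-fold (95% interval 1.14 to 1.51; adjusted p = 0.0320, limma), and the GC-1 difference 0.21 ± 0.09 (adjusted p = 0.294). The T3 call was lost without the T3 pair (0.25, adjusted p = 0.240) and with the covariate (0.27, adjusted p = 0.219). It was also lost without vehicle replicate 1 or 3 (adjusted p = 0.127 and 0.103), T3 replicate 1 or 2 (adjusted p = 0.109 and 0.0759) or GC-1 replicate 2 (adjusted p = 0.0508).

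Counted by non-overlap, T3 arrays lay wholly above vehicle arrays in 10 of the 30 probe sets, against 12.5% of all, and wholly below in 0, against 12.4%. GC-1 arrays lay wholly above in 9, against 10.8%, and wholly below in 0, against 15.6%. The probe sets of a gene are not independent of each other.

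The third question was where the ligands differ at this dose. Limma called 0 of 30 probe sets between GC-1 and T3, and 0% of the array. At an unadjusted p under 0.05 there were 5 of 30 (16.7%), close to the background of 14.1%. GC-1 arrays lay wholly below T3 arrays in 5 of 30, against 10.1% of all, and wholly above in 2, against 7.90%. The 5 below were HAMP, 2 of TFR2 and 2 of TF. The intervals given above for HAMP and TFR2 210215_at exclude 0, as does that of the dim TF 220109_at (-0.31, interval -0.56 to -0.06). With the opposite sign, those of HFE 211866_x_at (0.12, interval 0.01 to 0.23) and SLC11A2 210047_at (0.14, interval 0.007 to 0.26) exclude it too. These are the 5 probe sets with an unadjusted p under 0.05, and the last pair are the 2 in which GC-1 arrays lay wholly above. For the other called probe sets the interval of GC-1 minus T3 was -0.30 to 0.003 in TFR2 207883_s_at, -0.28 to 0.01 in TF 214064_at and -0.38 to 0.02 in CP. Missing the threshold is no evidence that T3 and GC-1 have equal effects on these genes.

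Wider lists of 103 iron, haem and copper genes, of which 81 were measured, gave 10 genes higher and 2 lower with T3 (12.3% and 2.47%, against 4.51% and 1.71% of all genes). With GC-1, 8 were higher and 2 lower (9.88% and 2.47%, against 2.10% and 1.16%). Their median differences were 0.02 and -0.0063, beside -0.017 and -0.0050 over all genes. Between the ligands limma called 0 of 81, with 8 at an unadjusted p under 0.05 (9.88%, against 14.1% of all genes). The same shares of all genes are the background for the counts of each list, which are small. The lists were written with earlier results of these data known, so a share above the background is not evidence that these pathways responded. Between the ligands, the copper transporter SLC31A2 was called without T3 replicate 3 (0.25, adjusted p = 0.0459).

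**Figure D4:**
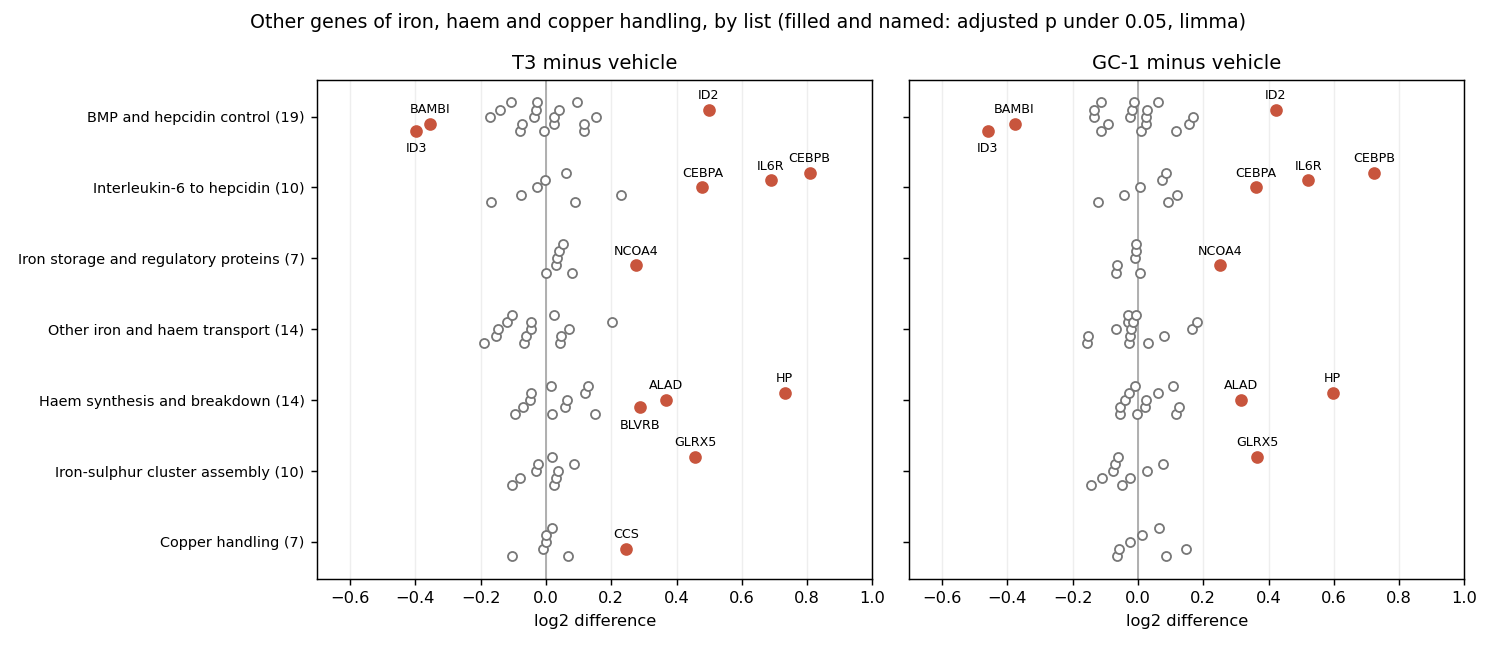
Log2 differences from vehicle of 81 measured genes in 7 lists, T3 on the left and GC-1 on the right; vertical offsets within a list carry no meaning. Filled, named points passed an adjusted p under 0.05 in limma: the interleukin-6 list holds 3 on the right-hand side of each panel, and ID3 and BAMBI are the 2 points on the left.

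In the list of BMP signalling and hepcidin control, 19 of 23 genes were measured, 1 rose and 2 fell with each ligand. ID2, a transcriptional inhibitor, rose (0.50 with T3, 0.42 with GC-1). ID3, another inhibitor known as a BMP target, fell (-0.40 and -0.46), as did BAMBI, a decoy receptor that BMP signals induce (-0.35 and -0.38). ID1, a further BMP target, had differences of -0.08 and -0.14 and was not called. SMAD6 and SMAD7, the inhibitory SMADs, stood at 0.10 and 0.12 with T3 and at 0.02 and 0.06 with GC-1. TMPRSS6, the protease that restrains hepcidin, stood at -0.14 and 0.02. NEO1, a receptor that aids BMP signalling in hepatocytes, stood at -0.17 and -0.09. None of these 4 was called. ID1, SMAD6, SMAD7 and TMPRSS6 fall outside the naming rule and were chosen, with their values seen, for their roles.

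The list for the interleukin-6 route to hepcidin also holds the liver factors CEBPA and CEBPB, and 10 of its 11 genes were measured. With each ligand 3 rose and none fell. Of all genes, 4.51% rose and 1.71% fell with T3, and 2.10% rose and 1.16% fell with GC-1. CEBPB and CEBPA, liver transcription factors of which the second is known to act on HAMP, rose by 0.81 and 0.48 with T3 and by 0.72 and 0.36 with GC-1. IL6R, the interleukin-6 receptor, rose by 0.69 and 0.52 in the probe set used, while its other probe set gave 0.12 with each. The GC-1 call of IL6R was lost without vehicle replicate 1 or 2 (adjusted p = 0.0634 and 0.0506) or GC-1 replicate 1 (adjusted p = 0.0675). STAT3 had differences of 0.23 (adjusted p = 0.0549, limma) and 0.12 (adjusted p = 0.379), and its T3 difference passed under 3 alternatives. These were without GC-1 replicate 1 (adjusted p = 0.0350), without the dimmest 25% of probe sets (adjusted p = 0.0361) and with trend and robust (adjusted p = 0.00877). SOCS3, a STAT3 target named after its values were seen, stood at -0.003 and 0.09 (adjusted p = 0.988 and 0.698).

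Of the iron storage and regulatory proteins 7 of 10 were measured, and NCOA4, the receptor that delivers ferritin for breakdown, was the 1 that rose (0.28 with T3, 0.25 with GC-1). The GC-1 call was lost without vehicle replicate 1 or 3 (adjusted p = 0.0710 and 0.0688) or GC-1 replicate 1 or 3 (adjusted p = 0.0665 and 0.0706). PCBP1, an iron chaperone, stood at 0.04 and -0.07, HERC2 at 0.08 and -0.06, and FBXL5, the iron-sensing ligase subunit, at 0.05 and -0.01. None of them was called.

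Among 14 of 17 measured genes of other iron and haem transport, 0 were called with either ligand in limma. LTF, or lactoferrin, stood at -0.19 and -0.02, and STEAP3, the reductase that prepares iron for SLC11A2, at -0.15 and -0.16. HEPH, a relative of CP, stood at -0.15 and -0.03. It was called without T3 replicate 3 (-0.20, adjusted p = 0.0494). LRP1, which takes up haem bound to hemopexin, stood at 0.20 and 0.18. It was called without T3 replicate 1 (0.30, adjusted p = 0.0176), without the T3 pair (0.35, adjusted p = 0.0155) and with the covariate (0.38, adjusted p = 0.0282).

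Haem genes were measured in 14 of 15 cases, and 3 rose with T3 and 2 with GC-1, none fell. HP, haptoglobin, which binds free haemoglobin and is also an acute phase protein, rose by 0.73 and 0.60. ALAD, the enzyme of the second step of haem synthesis, rose by 0.37 and 0.32. BLVRB, a biliverdin reductase, rose by 0.29 with T3 and had 0.11 with GC-1 (adjusted p = 0.412). ALAS1, the rate-limiting enzyme of haem synthesis in liver, had 0.15 and 0.13 (adjusted p = 0.0924 and 0.208). The ALAD call under GC-1 was lost without vehicle replicate 1 or 2 or GC-1 replicate 1 or 2 (adjusted p = 0.0584, 0.0573, 0.0564 and 0.0538), and that of BLVRB under T3 without vehicle replicate 2 (adjusted p = 0.0666).

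Iron-sulphur cluster assembly had 10 of 17 genes measured, and the mitochondrial glutaredoxin GLRX5 was the 1 that rose (0.46 and 0.36). LYRM4 (-0.10 and -0.14), HSPA9 (-0.08 and -0.11) and NFS1 (0.09 and 0.08) were not called, though LYRM4 passed under GC-1 with trend and robust (adjusted p = 0.0474). In copper handling, 7 of 10 were measured and CCS, the copper chaperone of superoxide dismutase, rose with T3 (0.24) and had 0.15 with GC-1 (adjusted p = 0.168). Its T3 call was lost without vehicle replicate 1 or 3 (adjusted p = 0.0600 and 0.0665). SLC31A2 (-0.11 and 0.09), COX11 (-0.01 and -0.07) and ATP7B, the exporter that loads copper onto CP (0.07 and 0.07), were not called.

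Markers of other liver and blood cells lay below the array medians in vehicle, apart from STAB1, COL1A1, ACTA2 and HBB, and 0 were called with either ligand. Macrophage markers (5 of 6 measured) had vehicle means from 4.88 to 6.39, stellate cell markers (6 of 6) from 4.78 to 10.16 and erythroid markers (2 of 5) from 6.15 to 7.94. The summed linear signal of the endothelial markers ran from 602 to 618 in vehicle, 544 to 658 with T3 and 605 to 656 with GC-1, so the groups overlapped.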

How the data were processed

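Messenger RNA was measured on 9 Affymetrix expression arrays, 3 per group, and the titles gave each array its group and number. The authors deposited log2 signals and used RMA (version not given), per the submitters' processing notes. The log base was inferred from the values. Slide, scan order and detection of single probe sets were not used here. After 62 array controls were left out, 22215 probe sets entered 1 model of the 3 group means without covariates. The tests were two-sided, from lmFit with eBayes (limma 3.58.1, R 4.3.3), and were checked on simulated arrays. The Benjamini-Hochberg adjustment covered every probe set, and an adjusted p under 0.05 was called.

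A probe set was used where the array annotation gave it exactly 1 symbol. A gene of the wider lists was read from its brightest probe set by mean signal. Named genes are the 4 of each list with the smallest p over both contrasts with vehicle, and all called genes where a list has 5 or fewer. The lists cover BMP and hepcidin control, the interleukin-6 route, iron storage and regulatory proteins, other iron and haem transport, haem synthesis and breakdown, iron-sulphur cluster assembly, and copper handling. Marker lists cover hepatocytes, liver endothelium, macrophages, stellate cells and erythroid cells. Members, lists and alternatives were chosen with earlier results of these data known.

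Alternatives were quantile normalization, leaving out the dimmest 25% of probe sets, eBayes with trend and robust, array weights, a replicate block, the interquartile range of an array as covariate, leaving out each array, leaving out T3 replicates 1 and 2 together, and counting a listed gene by any of its probe sets. With 3 arrays a group, their number limits the precision. No label calls the replicates separate cultures, and p-values then reflect the spread of these samples alone, possibly a technical one.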

Additional observations from a re-analysis of the deposited data

How the results depend on the processing

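HAMP kept its direction and its side of the threshold in all 3 comparisons under all 16 alternatives. The count of called member probe sets under T3, 5, became 8 with the trend and robust options, 2 with the interquartile range as covariate, 3 without T3 replicates 1 and 2, and 2 to 6 when 1 array was left out. Under GC-1, 1 became 2 with quantile normalization, without the dimmest 25% of probe sets, with trend and robust, with array weights and without the T3 pair, and 1 to 2 when 1 array was left out. The second was TF 214064_at under the first 5 settings and without T3 replicate 3, and HFE 211330_s_at without vehicle replicate 3. Over all probe sets the T3 count of 1222 became 1957 (trend and robust), 2084 (covariate; 932 higher, 1152 lower) and 661 to 1356 (1 array left out), and without the T3 pair 850 were higher and 980 lower. The GC-1 count of 622 became 1347 (trend and robust), 1435 (array weights), 1061 (without the T3 pair) and 274 to 1272 (1 array left out). Between the ligands, 0 became 22 (trend and robust) and 0 to 338 (1 array left out), and 0 wider-list genes became 0 to 1. The highest counts over all probe sets with 1 array left out, 1356, 1272 and 338, all came without T3 replicate 3. The cause of these shifts was not tested. Leaving out an array also leaves fewer arrays, yet the counts against vehicle moved in both directions.

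Deviations of same-numbered arrays correlated at -0.26 to 0.08. Differently numbered arrays were not compared, so this cannot exclude a culture or batch shared by replicate number. The labels do not say whether the numbers pair the arrays. With the replicate block the counts over all probe sets were 773 (T3) and 347 (GC-1), while the called member probe sets numbered 5 and 1 as before. Called wider-list genes numbered 12 under T3 and went from 10 to 9 under GC-1, where NCOA4 was lost (0.25, adjusted p = 0.0563). Near background, RMA shrinks differences, which bears on BMP6 and on the dim TFR2 and TF probe sets.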
